A study of Mus musculus with 165 samples.

Results

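IL3-OHT 96h is the time point of the macrophage differentiation of PUER cells that was harvested 8 h after part of the medium had been renewed and OHT added once more at 88h. Its 3 libraries, 1.82% of those in the series, were chosen by their sample titles and compared with the mean of the time points on either side, IL3-OHT 88h and IL3-OHT 104h (3 libraries each). PUER cells are myeloid progenitors kept as a line and taken from Spi1-/- mice, which lack PU.1 (the labels give bone marrow as the source, and the study's text names both bone marrow and fetal liver), and carry a fusion of PU.1 with the part of the estrogen receptor that binds ligand. The fused factor becomes active when 4-hydroxy-tamoxifen (OHT) is added. All 9 libraries came from cells kept in 5 ng/ml IL3 with 200 nM OHT. The point of comparison in the other cytokine, GCSF-OHT 96h (2 libraries), came from cells pre-treated for 48 h with 10 ng/ml GCSF and then given 100 nM OHT. Both cultures had medium replaced and OHT added at 40h, 88h and 136h, each time point was grown on a plate of its own, and cells of time points after 24h were detached with trypsin. Undifferentiated cells, read as a reference, were kept in 5 ng/ml IL3 and had no OHT. The labels do not say whether cells of 88h were harvested before or after the renewal, and OHT, fresh medium and the plate cannot be told apart as sources of what 96h shows. The authors had left IL3-OHT 96h and 144h out after clustering and correlating these same data, so that the number of genes that differ is a description of a time point selected in this way. Nothing in the sources ties the replicates of one time point to separate cell stocks, and p-values measure the spread between cultures of one line.

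In this cell system IL3 is the growth and survival factor, and it acts through a receptor whose shared beta chain activates JAK-STAT, RAS-ERK and PI3K signalling. Growth factors and nutrients raise the capacity to make ribosomes, nucleotides and polyamines, largely through MYC and mTORC1, while their loss lets FOXO factors raise inhibitors of the cell cycle and genes of autophagy. Sterol genes are turned on by SREBP factors when cellular sterol falls and turned off when it is supplied, and a set of glycolytic and other genes is turned on by HIF factors when oxygen at the cell is low. Genes of these and other programs were grouped into lists, which were chosen with earlier results of these data known, and each list was read at 96h.

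At 96h, 1632 genes were higher and 1424 were lower than the mean of 88h and 104h, together 17.5% of the 17439 genes tested (adjusted p under 0.05 and an absolute log2 difference over 0.58, on the scale of log2(normalized count + 1)). The median difference over all genes tested was 0, and 730 of the higher and 583 of the lower genes differed by more than 1 on the log2 scale. By direction these were 9.36% higher and 8.17% lower. Fewer genes differed between the neighbours, with 301 higher (1.73%) and 200 lower (1.15%) at 104h than at 88h, together 2.87%. Taken one at a time, 88h gave 1875 higher (10.8%) and 1617 lower (9.27%) genes, together 20%, and 104h gave 1325 higher (7.6%) and 1274 lower (7.31%), together 14.9%. In 1327 of the higher genes all 3 libraries of 96h lay above all 6 libraries of 88h and 104h, and in 1215 of the lower genes all 3 lay below. Over all genes tested such separation was seen upward in 18.1% and downward in 17.9%.

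The same comparison was made at every IL3 time point from 32h to 160h. Outside 96h, 144h and the time points next to them, between 15 (32h, 0.086%) and 296 (120h, 1.7%) genes differed from the mean of the time points on either side. At 88h and 104h, whose neighbours include 96h, 1284 (7.36%) and 410 (2.35%) genes did. IL3-OHT 144h, which is also 8 h after a renewal, came closest to 96h with 2677 genes (15.4%). IL3-OHT 48h, 8 h after the first renewal, had 279 (1.6%), and GCSF-OHT 96h had 811 (4.65%), of which 616 were lower. In the labels the libraries of 120h carry names of another series than those of all other time points. The bearing of this on the count at 120h was not tested.

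**Figure D1:**
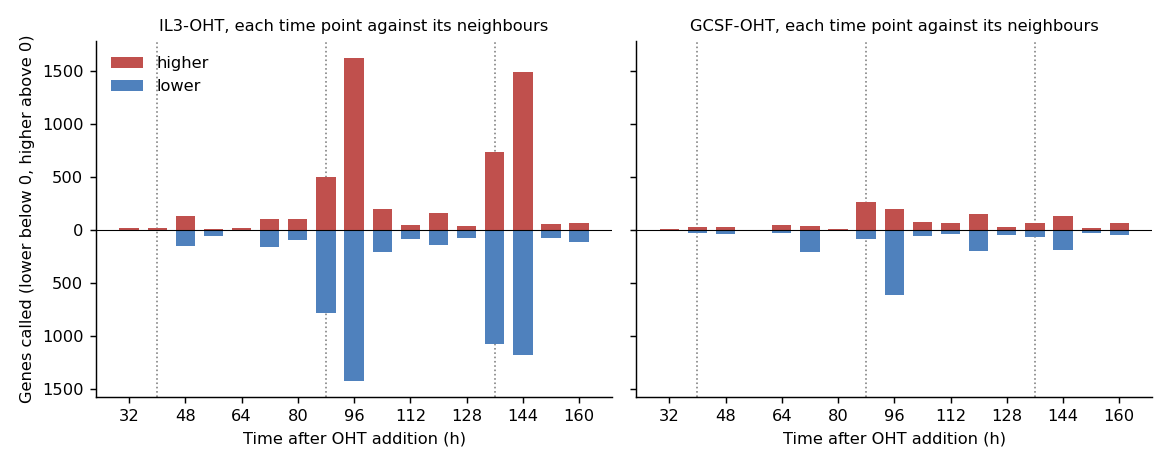
Genes that differ between each time point and the mean of the time points 8 h before and after it, in IL3-OHT (left) and GCSF-OHT (right). Bars above 0 count genes that are higher and bars below 0 genes that are lower (adjusted p under 0.05, absolute log2 difference over 0.58), the horizontal axis is the time after OHT addition in hours, and dotted lines mark the renewals at 40h, 88h and 136h. The tallest bars in IL3-OHT are those of 96h (1632 higher, 1424 lower) and 144h (1498 higher, 1179 lower), and 88h and 136h are compared with them.

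Across 12299 genes that averaged 10 normalized counts or more over the series, the mean profile of IL3-OHT 96h was nearer to that of 144h (root mean square difference 0.431 on the log2 scale), 72h (0.432), 56h (0.461) and 48h (0.468) than to that of 104h (0.545) or 88h (0.631). The profile of 88h was nearest to 80h (0.291), and 88h and 104h lay 0.340 apart. These distances are descriptions of group means, and genes are not independent replicates.

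**Figure D2:**
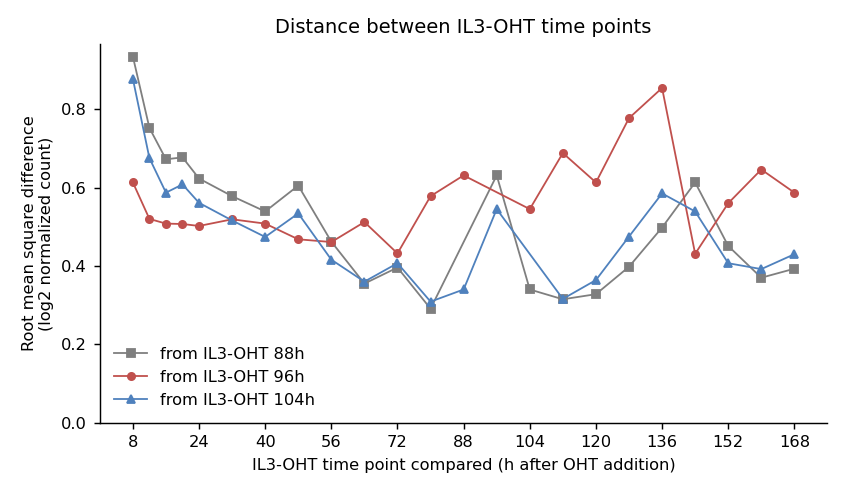
Root mean square difference in log2 normalized count between the mean profile of IL3-OHT 88h (grey squares), 96h (red circles) or 104h (blue triangles) and that of every other IL3-OHT time point from 8h to 168h (horizontal axis, hours after OHT addition). The 96h curve is lowest at 144h (0.431) and 72h (0.432), while the 88h and 104h curves, otherwise low between 64h and 120h, rise to 0.631 and 0.545 at 96h.

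The libraries behind the comparison were alike in depth, with 19980622 to 22541256 reads on genes in the 9 libraries, and 3 reads, the smallest count told from 0 here, correspond to a normalized count of 3.29 to 3.59 (counting error only). Chi-square values per gene for pairs of replicates (1 where reads differ by sampling only) were 2.78 to 3.07 at 96h, 4.31 to 5.79 at 88h and 2.96 to 19.5 at 104h, where replicate 1 stood apart from the other two. Without it the counts were 1628 higher and 1441 lower. Reads on mitochondrially encoded genes made up 1.39% to 1.55% of a library at 96h, against 0.991% to 1.08% at 88h and 1.07% to 1.28% at 104h, and the part of this share in the results was not tested. Markers of the labelled cell type were present for the most part, and so were markers of neutrophils. Itgam, the integrin chain Cd11b, stood at 6923 ± 137.1 normalized counts (SD, n = 3) at 96h, against 576.02 on average in undifferentiated cells, and Ccr2, a monocyte chemokine receptor, at 1866 ± 78.1. Csf1r, which defines mature macrophages, was low at 12.2 ± 4.07 and stood at 8.63 in undifferentiated cells. The neutrophil alarmin S100a8 was abundant at 84959.9 ± 2590.1, against 41511 in undifferentiated cells. Of the other macrophage markers, Adgre1, Cd68, Cd14, Mrc1, Msr1 and Fcgr1 averaged more than in undifferentiated cells, and Lgals3 less (3100 against 3232). Mrc1 (35.2) and Fcgr1 (16.3) were low. Of the other neutrophil markers, Ltf, Lcn2, Mmp8, Mmp9, S100a9 and Cebpe averaged more. Elane (54666 against 108129), Camp (2230 against 3864) and Ngp (29932 against 40548) averaged less. Of 6 progenitor genes, Cd34 was at or near 0 and Flt3 and Gata2 near the floor of 3 reads, while Kit, Sox4 and Myb stood at 1428 ± 55.9, 1507 ± 7.92 and 3141 ± 86.4 (SD, n = 3), against 4053, 7767 and 1626 in undifferentiated cells.

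Markers of other cells were low apart from Pecam1, Acta2 and Vwf. Of mast cell and basophil genes 6 of 15 reached the filter, with a summed normalized count of 156.2 to 189.7 at 96h, 142.6 to 148.6 at 88h and 130.6 to 163.9 at 104h, and Il1rl1 (2.13) and Ms4a2 (0.94) were higher at 96h, the call of Ms4a2 being lost without replicate 1 of 88h or of 96h, against 104h alone and in fits of fewer groups (adjusted p = 0.0521 to 0.123, limma). Of lymphoid genes 7 of 19 reached it, with sums of at most 21.05, 20.3 and 24.8 at the same time points, and of eosinophil and dendritic cell genes 11 of 15, with 29.1 to 32.2, 30.1 to 31.1 and 16.5 to 33.8, of which Xcr1 was higher (1.85). Of erythroid and megakaryocyte genes 8 of 16 reached it (1852 to 1869, 1141 to 1214 and 1469 to 1677), Gp1ba being higher (0.87) and Epor lower (-1.55), and of fibroblast and endothelial genes 9 of 13 (15683 to 16171, 19157 to 20586 and 19405 to 20234). The hemoglobin genes, Cd3e and Cpa3 did not reach the filter in any library. Il1rl1 and Xcr1 averaged under 20 normalized counts both at 96h and in its neighbours.

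Genes of ribosome production rose together at 96h. Of 46 factors that make ribosomal RNA and assemble ribosomes in the nucleolus, 38 were higher and the other 8 were not called, where 9.36% of all genes were higher. The median difference of the list was 0.97 on the log2 scale against 0 for all genes. Ddx21, a nucleolar RNA helicase, had normalized counts of 5195, 5632 and 5369.9 at 96h, against 1733, 1634 and 1645 at 88h and 1414, 1656 and 1578 at 104h (log2 difference 1.75, standard error 0.06, adjusted p = 1.34e-52). All libraries of 96h were thus well above those of either neighbour. Polr1b, a core subunit of RNA polymerase I, stood at 1334, 1367 and 1381 at 96h, against 383.3, 399.6 and 415.4 at 88h and 439.03, 401.9 and 406.9 at 104h (log2 difference 1.74, standard error 0.07, adjusted p = 1.82e-43). Rrp12, needed to export pre-ribosomes, was higher by 1.69 and Dkc1, the pseudouridine synthase of ribosomal RNA, by 1.65 on the log2 scale. Of the 54 genes for the proteins of the cytosolic ribosome, 0 were called by limma, 0 by edgeR and 0 by DESeq2. Their median difference was -0.13, and at an unadjusted p under 0.05 (limma) 2 leaned upward and 34 downward.

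Metabolism that feeds nucleotides, methyl groups and polyamines followed the same direction, with 12 of 23 genes higher and 2 lower (median 0.60). Of all genes 9.36% were higher and 8.17% lower. Mat2a, which makes the methyl donor S-adenosylmethionine (ENSMUSG00000053907, chromosome 6 from 72432799 to 72439558 of GRCm38), was among the 12 genes with the largest rise and went from 880.5, 1120.0 and 948.9 normalized counts at 88h to 4503, 4774 and 4715 at 96h, and stood at 941.7, 964.9 and 1043 at 104h (log2 difference 2.25, standard error 0.07, adjusted p = 6.59e-57). The level at 104h lay within the range of 88h. Gart, an enzyme of purine synthesis, had 3541, 3780.1 and 3638 at 96h, against 1047, 1062 and 1075 at 88h and 1202, 1093 and 1095 at 104h (log2 difference 1.74, standard error 0.05, adjusted p = 3.35e-55). Srm, spermidine synthase, had 3388, 3629 and 3359 at 96h, against 1006, 892.7 and 1042 at 88h and 1411, 951.4 and 1001 at 104h (log2 difference 1.73, standard error 0.10, adjusted p = 7.04e-33). The genes that fell were Sat1, which breaks polyamines down (-1.14), and Aldh1l2. Aldh1l2, which oxidizes formyltetrahydrofolate in mitochondria, fell to 865.3, 644.6 and 713.3 from 2349, 2358 and 2206 at 88h and was back at 2473, 2995 and 2990.3 at 104h (log2 difference -1.79, standard error 0.21, adjusted p = 3.43e-13).

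Of 48 genes of DNA replication, 22 were higher and the others not called, with a median of 0.55, where 9.36% of all genes were higher. Mcm2, a subunit of the replicative helicase, had normalized counts of 2867, 2982 and 2735 at 96h, against 1072, 1019 and 1182 at 88h and 1335, 1154 and 1105 at 104h (log2 difference 1.33, standard error 0.07, adjusted p = 2.53e-36), and Mcm5 of the same complex was higher by 1.23. Tyms, thymidylate synthase, was higher by 1.18. Of 40 genes of mitosis, 3 were lower and the others not called, where 8.17% of all genes were lower. The lower ones were Cenpf (-0.85), Cdc25c (-0.64) and Cenpa (-0.58, as small as -0.52 with a library left out and no longer called without replicate 1 or 3 of 88h, 3 of 96h or 3 of 104h), and the proliferation marker Mki67 differed by -0.14 (adjusted p = 0.112). Replication-dependent histone genes, whose transcripts belong to S phase, fell in 11 of 26 cases (7 to 16 under the alternatives). H1f2 fell from 1993, 1986 and 1890.1 at 88h to 948.1, 798.9 and 822.98 at 96h. Many of these genes are near-identical copies of one another, and how the counting split reads between them is not stated.

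Among 18 cyclins, kinases and inhibitors of G1, 7 were lower at 96h and 1, Rbl1 (0.73), a pocket protein that restrains entry into the cell cycle, was higher (background 8.17% lower and 9.36% higher). Cdkn1b, an inhibitor of cyclin-dependent kinases, had normalized counts of 1967, 1817 and 1822 at 96h, against 4093, 4082 and 3771 at 88h and 3333, 4204 and 3899 at 104h (log2 difference -1.06, standard error 0.07, adjusted p = 8.63e-27). Cdkn2d, an inhibitor of the G1 kinases, had 496.99, 488.2 and 486.3 at 96h, against 1278, 1153 and 1185 at 88h and 1278, 1269 and 1261 at 104h (log2 difference -1.33, standard error 0.07, adjusted p = 2.26e-35). In both genes the 96h libraries lay below all 6 neighbour libraries. Ccng2, an atypical cyclin of resting cells, fell by 1.22 and Cdkn2b by 1.69 on the log2 scale, the latter from no more than 34.5 normalized counts. Ccnd1, the gene of a G1 cyclin, had at most 17.9 normalized counts in the 9 libraries and was not called. Of 25 targets of FOXO factors and genes of autophagy, 9 were lower, among them Wipi1, an autophagosome protein (-1.15), and the others were not called. Ccng2 and Cdkn1b belong to both lists. In the network around MYC, 5 of 10 genes were lower. They include Mxd1 (-1.08), Mxi1 (-0.89), Mxd4 (-0.75) and Mnt (-0.63), which compete with MYC for its partner MAX and repress, and Mlx (-0.61). Myc itself had normalized counts of 4508, 4498 and 4531 at 96h, against 3428, 3456 and 3559.6 at 88h and 4281, 3514 and 3658 at 104h (log2 difference 0.31, standard error 0.06, adjusted p = 2.18e-06), a difference below the fold-change threshold.

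**Figure D3:**
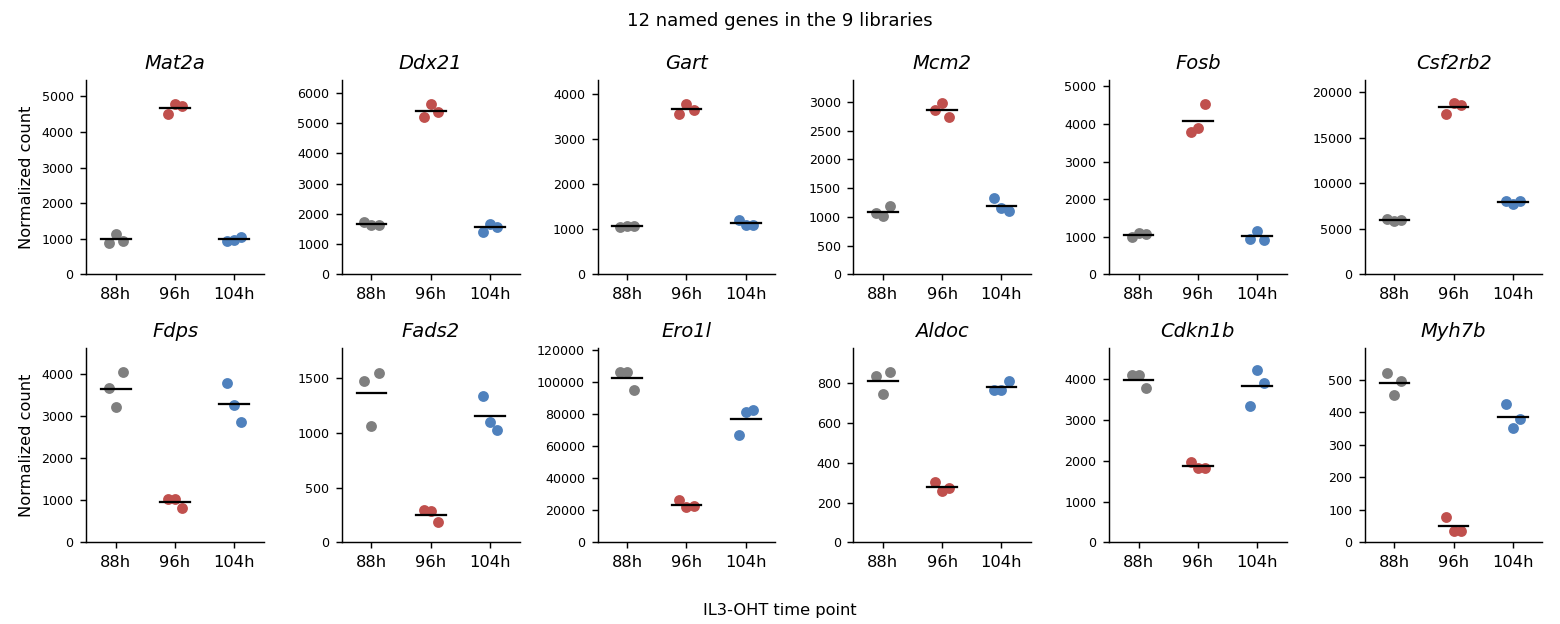
Normalized counts of 12 genes in the 3 libraries each of IL3-OHT 88h (grey), 96h (red) and 104h (blue). Points are libraries, black bars are means, and each panel has its own axis starting at 0. Mat2a, Ddx21, Gart, Mcm2, Fosb and Csf2rb2 (top) are higher in all 3 libraries of 96h than in the other 6, and Fdps, Fads2, Ero1l, Aldoc, Cdkn1b and Myh7b (bottom) are lower.

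Genes of lipid synthesis were lower at 96h. Of 25 genes of cholesterol synthesis and uptake, 21 were lower and the other 4 not called, where 8.17% of all genes were lower. The median difference of the list was -1.04 (all genes 0). Fdps, which makes farnesyl diphosphate, went from 3680.0, 3209 and 4043 normalized counts at 88h to 1043, 1044 and 814.1 at 96h and was 3788, 3256 and 2859 at 104h (log2 difference -1.84, standard error 0.09, adjusted p = 1.56e-37). The same drop and return was seen in Fdft1, squalene synthase, with 201.5, 198.6 and 136.2 at 96h, against 595.4, 533.6 and 535.7 at 88h and 564.2, 488.6 and 536.7 at 104h (log2 difference -1.62, standard error 0.10, adjusted p = 4.96e-29). Msmo1, a sterol oxidase of the later pathway, was lower by 1.48 and Insig1, the sterol-responsive brake on SREBP processing, by 1.31 on the log2 scale. Among genes of fatty acid synthesis and desaturation 4 of 14 were lower, beside the same 8.17% of all genes. The fatty acid desaturase Fads2 had 293.3, 286.3 and 184.98 at 96h, against 1476, 1068 and 1549 at 88h and 1341, 1099 and 1027 at 104h (log2 difference -2.31, standard error 0.12, adjusted p = 2.99e-36), and its neighbour in function Fads1 fell by 1.24. Acsl3, which activates fatty acids, and Me1, which supplies NADPH, fell by 0.87 and 0.66. Pcx, pyruvate carboxylase, had 68.3, 47.7 and 56.5 at 96h, against 304.3, 245.4 and 271.8 at 88h and 215.1, 218.4 and 189.2 at 104h (log2 difference -2.04, standard error 0.14, adjusted p = 6.10e-27). Abca1, the cholesterol exporter, was also lower (-1.03), and Apoe, which carries lipid out of macrophages, was higher (0.70, 0.49 and not called against 104h alone).

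Glycolysis and the hypoxia response were lower as well. Of 21 glycolytic genes 12 were lower (median -0.68), and of 17 genes of the hypoxia response 12 were lower (median -0.93). The others were not called in either list, and 8.17% of all genes were lower. Gpi1, glucose phosphate isomerase, went from 201092, 195972 and 205480.0 normalized counts at 88h to 94936, 90122 and 88714 at 96h and 202404, 172205 and 173230.0 at 104h (log2 difference -1.07, standard error 0.07, adjusted p = 2.47e-26). The aldolase Aldoc had 304.5, 258.5 and 272.5 at 96h, against 833.7, 745.2 and 857.6 at 88h and 766.1, 765.6 and 810.5 at 104h (log2 difference -1.51, standard error 0.14, adjusted p = 2.38e-17), and Pfkm, the muscle form of phosphofructokinase, was lower by 1.04. Ero1l, an oxidase of the endoplasmic reticulum and a HIF target, had 26249, 21886 and 22469.7 at 96h, against 106213, 106209 and 95228 at 88h and 67348, 81202 and 82507 at 104h (log2 difference -1.92, standard error 0.11, adjusted p = 2.18e-31). The values of 96h were below all of the others, and those of 104h were below those of 88h too. Bnip3, a mitophagy receptor, fell by 1.24, P4ha2, a collagen prolyl hydroxylase, by 1.23, Ndrg1 by 1.13 and Vegfa, the vascular growth factor, by 0.96. Bnip3 is counted in the FOXO list and Mxi1 in the MYC list too.

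Read over the whole course from 32h to 168h, the list medians at 96h lay beyond those of all 16 other time points, with 144h set aside, for ribosome biogenesis, for polyamine and one-carbon genes, for cholesterol genes and for the hypoxia response. The median of ribosome biogenesis, centred on each gene's mean over these libraries, was 0.77 at 96h, against a highest value of 0.50 at 48h, -0.22 at 88h and -0.29 at 104h. For cholesterol genes it was -0.53, against 0.49 at 88h, the highest of the course, 0.43 at 104h and a lowest other value of -0.49 at 168h, while 144h itself was lower at -0.58. In single libraries of 96h the cholesterol median ranged from -0.643 to -0.45, on both sides of the mean at 168h. For the hypoxia response it was -0.70, against -0.46 at 48h. Replication genes at 96h (0.53) were below their level at 48h (0.63), and the lowest value of their course was -0.76 at 136h. Glycolysis at 96h (-0.49) was close to its value at 48h (-0.49).

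**Figure D4:**
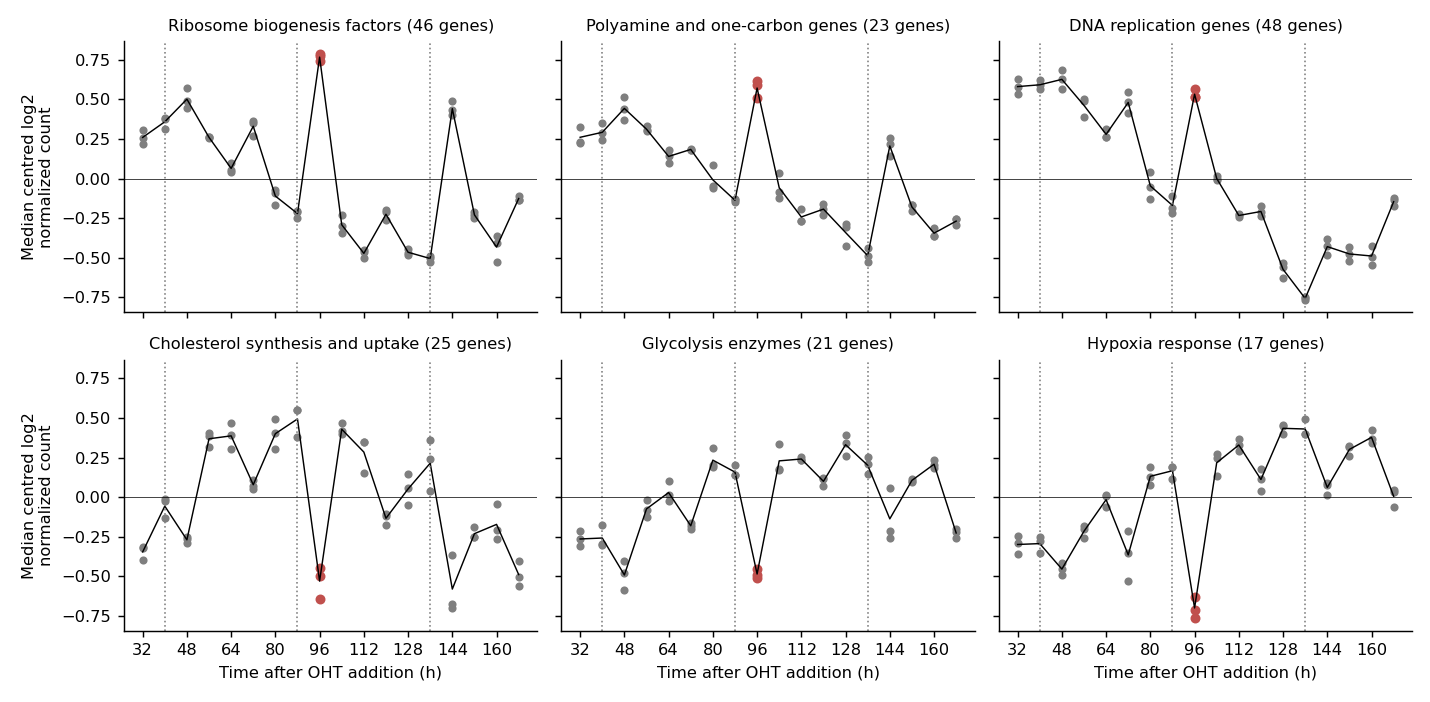
Median over the genes of 6 lists of the log2 normalized count, centred on each gene's mean over the libraries shown, against time after OHT addition in IL3-OHT (32h to 168h). Each point is a library (96h in red), the line joins the means of the time points, and dotted lines mark the renewals at 40h, 88h and 136h. Ribosome biogenesis rises to 0.77 at 96h and falls back to -0.29 at 104h, and the hypoxia response drops to -0.70 and returns to 0.22.

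The stretches of promoter below, from the RefSeq windows of GRCm38.p6, show the letters that the literature ties to the factors named above. They come from a few called genes of 4 lists. Genes that hold the letters were taken in order of the size of their change, and windows on a single chromosome were passed over for display. The 250 bases before the start of each transcript were searched on both strands for the E-box CACGTG bound by MYC and its partners, for TTTNGCGC of E2F factors, for TCACNCCAC of SREBP and for ACGTG of HIF factors, the last of which lies within the E-box as well. Capitals mark the matches, the sequences run 5′ to 3′ on the strand of the gene, and a match is a description of these letters and no evidence of binding.
Nop2 (ribosome biogenesis, chr6:125131793-125131862, plus strand): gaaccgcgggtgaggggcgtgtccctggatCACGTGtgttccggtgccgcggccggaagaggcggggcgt
Mcm5 (DNA replication, chr8:75109330-75109399, plus strand): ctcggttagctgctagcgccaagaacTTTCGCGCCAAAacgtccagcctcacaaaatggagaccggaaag
Pola1 (DNA replication, chrX:93632254-93632323, minus strand): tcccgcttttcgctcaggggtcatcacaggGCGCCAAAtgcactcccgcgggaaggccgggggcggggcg
Hmgcs1 (cholesterol synthesis, chr13:119690184-119690253, plus strand): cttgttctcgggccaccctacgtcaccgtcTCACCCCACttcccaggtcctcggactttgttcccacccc
Bnip3 (hypoxia response, chr7:138909574-138909643, minus strand): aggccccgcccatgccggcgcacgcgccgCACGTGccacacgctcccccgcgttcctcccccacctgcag
P4ha2 (hypoxia response, chr11:54100816-54100885, plus strand): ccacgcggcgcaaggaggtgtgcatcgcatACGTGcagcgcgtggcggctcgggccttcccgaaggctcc

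Windows, of which a gene can have more than 1, were found for 11660 of the 17439 genes tested. The E-box was in 3 of 49 windows (6.12%) of ribosome biogenesis, against 7.73% over the windows of all genes tested, and in 4 of 21 windows (19%) of polyamine and one-carbon genes. The E2F letters were in 6 of 46 windows (13%) of replication genes, with a background of 1.79%. The HIF letters were in 11 of 20 windows (55%) of the hypoxia response and 13 of 31 windows (41.9%) of glycolysis, with a background of 20.4%. The SREBP letters were in 1 of 20 windows (5%) of cholesterol genes, that of Hmgcs1, with a background of 0.999%. Over the promoters of all RefSeq genes the shares were 6.02%, 1.13%, 16.6% and 1.05% in the same order. Among all genes higher at 96h the E-box was in 9.83% of windows, and among those lower in 7.17%.

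Of 22 immediate-early genes, which respond to growth factor signalling within minutes, 3 were higher and 2 lower, beside 9.36% and 8.17% of all genes. Fosb, a subunit of AP-1, had normalized counts of 3777, 3903 and 4527 at 96h, against 1004, 1087 and 1085 at 88h and 948.3, 1157 and 919.4 at 104h (log2 difference 1.98, standard error 0.16, adjusted p = 7.40e-22), and Fos had 6472, 6432 and 7045 at 96h, against 2874, 2739 and 2994 at 88h and 2595, 2414 and 2240.2 at 104h (log2 difference 1.34, standard error 0.10, adjusted p = 5.96e-23). Both were above all 6 neighbour libraries. Nr4a1 was higher (1.23) at low levels that overlapped those of 104h (0.72 and not called against 104h alone), and Maff (-1.29) and Klf10 (-0.63) were lower. Egr1 and Egr2, which act in macrophage differentiation, were higher. Egr2 had 564.2, 472.7 and 629.1 at 96h, against 185.7, 217.3 and 177.1 at 88h and 234.9, 273.6 and 235.4 at 104h (log2 difference 1.33, standard error 0.19, adjusted p = 7.47e-10) and Egr1 8761, 8599.8 and 10399.7 at 96h, against 5288, 5448 and 4355 at 88h and 4233, 4484 and 4171 at 104h (log2 difference 0.99, standard error 0.15, adjusted p = 1.08e-08). With Egr3 (2.85), which averaged under 20 normalized counts, they were the 3 of 6 genes of EGR factors and their corepressors that were called. Of 14 feedback genes of ERK signalling 3 were higher, Dusp2 (1.11), Dusp5 (0.72, 0.44 against 104h alone) and Spry1 (0.70), and 2 lower, Spred3 (-1.14) and Dusp4 (-0.72, its libraries overlapping those of 104h). Dusp2 averaged under 20 normalized counts, and Dusp6 differed by 0.079 (adjusted p = 0.277, limma).

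Of 15 targets of STAT5, the factor downstream of the IL3 receptor, 1 was lower, the kinase gene Pim2 (-0.83), and the others were not called. Cish, the feedback inhibitor, had normalized counts of 7484, 7396 and 7688 at 96h, against 7139.5, 6763 and 7114 at 88h and 8876, 7839.6 and 8138 at 104h, a difference of -0.017 (adjusted p = 0.877), and Socs3 differed by 0.11 (adjusted p = 0.181). Csf2rb2, the beta chain particular to the mouse IL3 receptor, had 17652, 18805 and 18660.5 at 96h, against 6124, 5881 and 5956 at 88h and 8081, 7755 and 8105 at 104h (log2 difference 1.41, standard error 0.05, adjusted p = 4.25e-53). Il17ra was higher by 1.29 and Ifngr2 by 0.71 (0.57 and not called against 104h alone). Of 28 myeloid cytokine receptor genes 5 were higher, Il1rl1 (2.13) and Il10rb (0.59) being the others, and 1, Epor (-1.55), was lower, beside 9.36% and 8.17% of all genes, and the higher count ranged from 2 to 6 under the alternatives. Il1rl1 averaged under 20 normalized counts. Csf2rb2 has a near-identical paralog, Csf2rb, between which reads could be split.

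Spi1, which encodes PU.1, had normalized counts of 9161, 9399 and 9196 at 96h, against 5089.9, 4974 and 5236 at 88h and 5777, 5328 and 5286 at 104h (log2 difference 0.81, standard error 0.04, adjusted p = 4.27e-35, ENSMUSG00000002111, chromosome 2 from 91082390 to 91115756 of GRCm38). Esr1, which encodes the estrogen receptor, had 4484, 4904 and 4838 at 96h, against 1824, 2103 and 2037 at 88h and 2322, 2039 and 2091 at 104h (log2 difference 1.20, standard error 0.05, adjusted p = 1.27e-44). The cells carry the fusion of PU.1 with part of the estrogen receptor, the endogenous Spi1 gene is disrupted, and reads of the transgene cannot be told apart from those of the reference genes in gene counts. Gfi1 differed by -0.40, Cebpe by 0.40, Cebpa by 0.034 and Irf8, at no more than 32.99 normalized counts, by -0.0074, and none was called. Of 38 myeloid transcription factor genes 3 were higher, Spi1, Batf (0.67, 0.52 and not called against 104h alone) and Spib (2.06). Spib averaged under 20 normalized counts, and 9.36% of all genes were higher.

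Markers of differentiation moved in both directions. Of 32 monocyte and macrophage markers 5 were higher and 1 lower, shares to be read beside 9.36% and 8.17% of all genes. Against 104h alone none of the 5 was called by limma, with Cx3cr1 at 0.55 and Cd14 at 0.57, under the fold-change threshold, and Itgax at 0.074, and Itgax was not called without replicate 1 of 88h either (0.55). Cx3cr1, the fractalkine receptor, had normalized counts of 2997, 3184 and 3507 at 96h, against 957.1, 1065 and 1099 at 88h and 2173, 2120.1 and 2328 at 104h (log2 difference 1.09, standard error 0.06, adjusted p = 3.17e-32), so that it rose from 88h to 96h and stayed above 88h at 104h. Cd14, a receptor for lipopolysaccharide, was higher by 0.89, Itgax by 0.63, Mertk by 1.23 and Vcan by 0.62. Mertk averaged under 20 normalized counts, and F13a1 was lower by 0.71. Adgre1, the macrophage antigen F4/80, had 315.7, 306.2 and 301.3 at 96h, against 348.6, 292.7 and 412.1 at 88h and 409.4, 399.7 and 438.8 at 104h (adjusted p = 0.249), Itgam differed by 0.045 and Ccr2 by 0.15, and none of these was called. Among proteins of primary granules 1 of 15 was higher, Ctsc (0.86, 0.40 against 104h alone), and 3 were lower. The lower ones were Mpo, Nkg7 (-1.02) and Prss57 (-1.20), which overlaps Fstl3 and averaged under 20 normalized counts. Mpo, myeloperoxidase, had 5445, 5827 and 4785 at 96h, against 15926, 13257 and 18686 at 88h and 8051, 5738 and 6006 at 104h (log2 difference -0.93, standard error 0.09, adjusted p = 4.61e-16). Its 96h values overlapped those of 104h. Against 104h alone Mpo differed by -0.29 and Nkg7 by -0.16 (adjusted p = 0.747, limma), neither was called, and the count of lower granule genes ranged from 0 to 7 under the alternatives. Of 21 genes of later granules 1 was called, Ltb4r1 (-1.17). Kit, the receptor of progenitors, differed by 0.13 (adjusted p = 0.0293), below the fold-change threshold.

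Of 24 chemokines and cytokines 6 were higher (3 to 8 under the alternatives) and 1, Vegfa, was lower, beside 9.36% and 8.17% of all genes. Cxcl2, which attracts neutrophils, had 723.1, 693.4 and 800.8 at 96h, against 241.98, 297.2 and 255.1 at 88h and 453.3, 507.8 and 481.7 at 104h (log2 difference 1.05, standard error 0.15, adjusted p = 1.38e-09), and Tnf had 1269, 1215 and 1433 at 96h, against 753.5, 778.97 and 667.2 at 88h and 682.7, 626.00 and 627.97 at 104h (log2 difference 0.92, standard error 0.09, adjusted p = 6.30e-17). Of 35 interferon-stimulated genes 1 was higher, Ifit3b (1.28), which averaged under 20 normalized counts, and 5 were lower. The exonuclease gene Isg20 fell most, with 445.5, 413.8 and 374.4 at 96h, against 1521, 1377 and 1386 at 88h and 1611, 1388 and 1451 at 104h (log2 difference -1.82, standard error 0.11, adjusted p = 4.16e-32, limma). The RNA sensors Dhx58 (-0.90) and Ddx58 (-0.77) followed. Of 16 genes of antigen presentation 3 were higher, Cd80 (0.96, its call being lost against 104h alone and without replicate 1 of 88h, 1 or 3 of 96h or 1 of 104h, adjusted p = 0.0549 to 0.111, limma), H2-DMa (1.02) and Cd1d1 (0.89), and 7 lower, among them the immunoproteasome subunit Psmb9 (-1.17). Ciita, the regulator of class II genes, was low throughout and overlapped the values of 104h (-1.31), and its call was lost without replicate 3 of 88h or replicate 1 or 3 of 96h, against 104h alone and with a pseudocount of 0.5 (adjusted p = 0.0584 to 0.453, limma).

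The counts of the lists that follow stand beside 9.36% and 8.17% of all genes. Of 20 circadian genes 9 were lower and 2, the repressors Nr1d1 (0.68) and Nr1d2 (0.71), higher. The clock output factor Dbp had 252.97, 288.5 and 291.3 at 96h, against 546.2, 533.6 and 611.5 at 88h and 582.8, 433.5 and 483.9 at 104h (log2 difference -0.93, standard error 0.11, adjusted p = 2.50e-12), and Per1 (-0.88) and Rora (-1.01) were lower too. Amino acid genes regulated by ATF4 divided into 5 higher and 6 lower of 28. The higher ones include the transporters Slc7a11 (1.76) and Slc7a5, which had 3763, 3924 and 3588 at 96h, against 1536, 1523 and 1623 at 88h and 1765, 1429 and 1498 at 104h (log2 difference 1.27, standard error 0.07, adjusted p = 6.34e-35), and the lower ones the stress gene Nupr1 (-0.98) and Cth, which makes cysteine (-1.12, -0.74 and not called against 104h alone). Of 20 chaperones of the endoplasmic reticulum 6 were higher, led by Hspa5 (0.81). Of 18 heat shock genes 2 were higher, Hspd1 (1.01) and Hspa8 (0.97), and 3 lower, among them the inducible Hspa1a (-1.18) and Hspa1b (-0.95, -0.49 against 104h alone). The transferrin receptor Tfrc, which brings iron into growing cells, had 11686, 11238 and 11803 at 96h, against 3988, 4439.7 and 4252 at 88h and 4580.2, 5563 and 5645 at 104h (log2 difference 1.30, standard error 0.08, adjusted p = 1.61e-31). The metallothionein gene Mt2 had 1347, 1371 and 1290.4 at 96h, against 3894, 4005 and 3907 at 88h and 2562, 2949 and 2713 at 104h (log2 difference -1.30, standard error 0.11, adjusted p = 3.09e-19). Of 13 mitochondrially encoded genes 5 were higher, led by mt-Nd3 (1.51) and mt-Cytb (1.30), beside the share of mitochondrial reads given above, while of 47 nuclear genes of the respiratory chain 2 were lower, Ndufa6 (-0.68) and Ndufb3 (-0.58), and the others not called. Neither was called against 104h alone (-0.53 and -0.45), and Ndufb3, at the fold-change threshold, lost its call without any 1 of 6 of the 9 libraries.

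The genes that changed most in either direction, among those with a mean of at least 50 normalized counts on the higher side and no overlap between the groups, were mostly of low level. Ccdc116 rose from 8.39, 10.1 and 10.02 normalized counts at 88h to 91.8, 112.1 and 98.6 at 96h and was 26.3, 21.4 and 26.4 at 104h (log2 difference 2.63, standard error 0.24, adjusted p = 1.60e-18). Arhgap4, a GTPase-activating protein of blood cells, had 128.7, 120.9 and 140.7 at 96h, against 16.8, 11.3 and 17.8 at 88h and 39.5, 21.4 and 40.7 at 104h (log2 difference 2.50, standard error 0.21, adjusted p = 1.20e-20). In both the 104h libraries kept part of the rise. The others were Dnah10 (2.37), Serpinb9g (2.20), the tRNA methyltransferase subunit gene Trmt61a (2.08), the sodium pump subunit gene Atp1b2 (2.05), Cyb5rl (2.05), the nucleolar gene Gpatch4 (2.04), Rnf225 (2.02), Serpinb9f (2.01) and Gp1bb (1.98). Trmt61a had 580.9, 626.9 and 558.3 at 96h, against 135.4, 147.5 and 134.8 at 88h and 141.6, 136.2 and 136.4 at 104h. Gpatch4 had 794.7, 849.9 and 806.4 at 96h, against 154.5, 169.98 and 208.3 at 88h and 231.6, 211.7 and 218.9 at 104h. Both were back near 88h by 104h. Serpinb9f and Serpinb9g belong to a family of close copies.

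Among the genes that fell, Myh7b, a myosin heavy chain gene, went from 518.7, 452.5 and 494.5 normalized counts at 88h to 77.2, 36.6 and 34.3 at 96h and 423.7, 351.3 and 379.4 at 104h (log2 difference -3.20, standard error 0.32, adjusted p = 1.76e-16). Grin1, a glutamate receptor subunit gene, had 13.4, 5.55 and 16.6 at 96h, against 104.2, 140.7 and 99.1 at 88h and 96.6, 103.6 and 106.7 at 104h (log2 difference -3.20, standard error 0.41, adjusted p = 3.28e-11) and Nectin2, an adhesion molecule, 6.72, 7.77 and 4.43 at 96h, against 80.3, 75.4 and 86.9 at 88h and 52.7, 42.8 and 39.6 at 104h (log2 difference -3.09, standard error 0.42, adjusted p = 1.31e-10). At 96h the counts of Nectin2 came close to the floor of 3 reads. Fgf23, a hormone of phosphate balance, stood at 312.3, 229.7 and 252.5 at 96h, against 1525, 1448 and 1374 at 88h and 1633, 1446 and 1432 at 104h (log2 difference -2.48, standard error 0.39, adjusted p = 1.60e-08), and Fstl3, which binds activin, at 86.2, 59.9 and 76.4 at 96h, against 398.9, 299.4 and 346.4 at 88h and 430.2, 378.3 and 392.6 at 104h (log2 difference -2.33, standard error 0.18, adjusted p = 2.67e-22). Next came Fads2, Azin2 of polyamine control (-2.24), Fn3k (-2.15), Btn2a2 (-2.07), Pcx, the amino acid oxidase gene Il4i1 (-2.03) and Ppfia3 (-2.01). Exons of Ccdc116, Arhgap4, Dnah10, Mat2a, Rnf225, Gp1bb, Myh7b, Grin1, Nectin2, Fstl3, Il4i1 and Ppfia3 overlap exons of other annotated genes. So do exons of further genes named above, among them Fdft1, Fdps, Gart, Aldh1l2, Gpi1, Dkc1, Bnip3, Mt2, Mpo, Psmb9, H2-DMa, Hspd1, Dbp and Cx3cr1. Use of strand in the counting is not stated, so that reads in the shared stretches cannot be told apart from those of the overlapping gene. The length of these stretches was not examined.

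IL3-OHT 144h, the other time point 8 h after a renewal that was left out, shares no library with the comparison at 96h. Of the 1632 genes higher at 96h, 904 were also higher at 144h than the mean of 136h and 152h, which is 55.4% of the 96h list and 60.3% of the 144h list, where 8.59% of all genes were higher. Of the 1424 lower genes, 700 were also lower (49.2% and 59.4% of the lists, background 6.76%). In the opposite direction, 1 of the higher and 5 of the lower genes were called. Over 10063 genes with at least 100 normalized counts on the higher side the differences at the 2 time points had a Pearson's r of 0.823 across genes, which are not independent, and it was 0.562 over all genes tested.

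The size of the difference itself differed between 96h and 144h in 495 genes (2.84%). Of 17 hypoxia genes, 3 were lower at 144h (median -0.34), against 12 at 96h, and the difference of differences was called in 9, against 1.94% downward and 0.9% upward of all genes. Replication genes were higher in 10 of 48 at 144h (median 0.14), with 13 called as higher at 96h than at 144h in this sense. Of ribosome biogenesis, 34 of 46 genes were higher (median 0.81), with 2 called as different, and Mat2a was higher by 1.77 at 144h. Cholesterol genes were lower in 13 of 25 (median -0.58), with 6 called as lower still at 96h. In the other direction, Fosb was higher by 2.75 at 144h against 1.98 at 96h and Myc by 0.96 against 0.31. Replicate 3 of IL3-OHT 144h stood apart from the other replicates, with chi-square values per gene of 26.1 and 23.6 against 3.4 for the other pair and 0.984% of mitochondrial reads against 1.46% and 1.64%. Without it 1345 genes were higher and 1195 lower at 144h, 835 and 715 of them as at 96h, and the difference between the time points was called in 468. The hypoxia genes called as different were then 9 and the replication genes 18, but 17 cholesterol genes were lower at 144h and 1 was lower still at 96h. The library numbers in the labels of 144h run before those of 136h, and the bearing of this on the comparison at 144h was not tested.

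At IL3-OHT 48h, which followed the first renewal by 8 h and was kept by the authors, fewer genes moved. Of the genes higher at 96h, 25 were higher at 48h than the mean of 40h and 56h (1.53% of the 96h list and 18.9% of the 48h list, background 0.757%). Of those lower, 7.09% were also lower at 48h, which is 68.7% of the 48h list (background 0.843%). The difference of differences was called in 1833 genes (10.5%), 5.63% upward and 4.88% downward. Of ribosome biogenesis 0 genes passed at 48h by limma (median 0.18), with 36 upward and 0 downward at an unadjusted p under 0.05, while 5 of 25 cholesterol genes were lower (median -0.39), and Fads2 was lower by 1.44 and Myh7b by 1.78 on the log2 scale. The higher count at 48h, 0.757% of genes, was 0.361% without replicate 2 of 48h and 0.419% without replicate 3. With levels taken over the course, ribosome, polyamine and replication genes were already high at 48h and hypoxia genes low, as the plot of list medians shows.

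GCSF-OHT cells were renewed at the same hour, and GCSF-OHT 96h (2 libraries) was set against GCSF-OHT 88h and 104h in the same way. Of the genes higher at IL3-OHT 96h, 94 were also higher there (5.76% of the IL3 list and 48.2% of the GCSF list, background 1.12%). Of those lower, 355 were also lower (24.9% and 57.6%, background 3.53%). The change differed between the cytokines in 1353 genes (7.76%), of which 859 (4.93%) moved more upward, or less downward, in IL3 and 494 (2.83%) the other way. Replicate 3 of GCSF-OHT 104h stood apart from its replicates (chi-square values per gene of 47.5 and 68.5 against 6.1, and 1.97% of mitochondrial reads against 1.19% and 1.27%). Without it 1.21% of genes were higher and 3.95% lower at GCSF-OHT 96h, and the change differed between the cytokines in 1457 genes. Without replicate 2 of GCSF-OHT 96h, where the lone library was assumed to vary like the other groups, 0.648% were higher and 2.45% lower, 3.37% and 17.4% of the IL3 lists were shared, and the difference was called in 1351. OHT doses differ between the cytokines (200 nM and 100 nM), and cytokine and dose cannot be told apart.

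Hypoxia and glycolysis genes were lower in both cytokines. The counts that follow stand beside 1.12% of all genes higher and 3.53% lower at GCSF-OHT 96h. The difference between the cytokines was called upward in 4.93% and downward in 2.83% of all genes. At GCSF-OHT 96h, 13 of 17 hypoxia genes were lower (median -1.05) and 14 of 21 glycolytic genes (median -0.78), and the difference between the cytokines was called in 3 and 2 of them. Ero1l was lower by 1.05 in GCSF and 1.92 in IL3. Of ribosome biogenesis, 6 of 46 genes were higher in GCSF (median 0.34), and 28 were called as more upward in IL3. Replication genes had a median of 0.22 in GCSF, where 0 were called by limma and 28 were upward at an unadjusted p under 0.05, and 13 were called as different. Of 25 cholesterol genes, 8 were lower in GCSF (median -0.48), with 9 called as more downward in IL3, but 2 were lower without replicate 2 of GCSF-OHT 96h and 14 without replicate 1. Signalling genes differed as well. At GCSF-OHT 96h 7 of 14 ERK feedback genes were lower (3 without replicate 2 of GCSF-OHT 96h), Egr1 differed by -1.01 there against 0.99 in IL3, Cish by -0.94 against -0.017 and Dusp6 by -0.87 against 0.079, and the difference between the cytokines was called in 7 ERK feedback genes and 6 of 15 STAT5 targets.

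**Figure D5:**
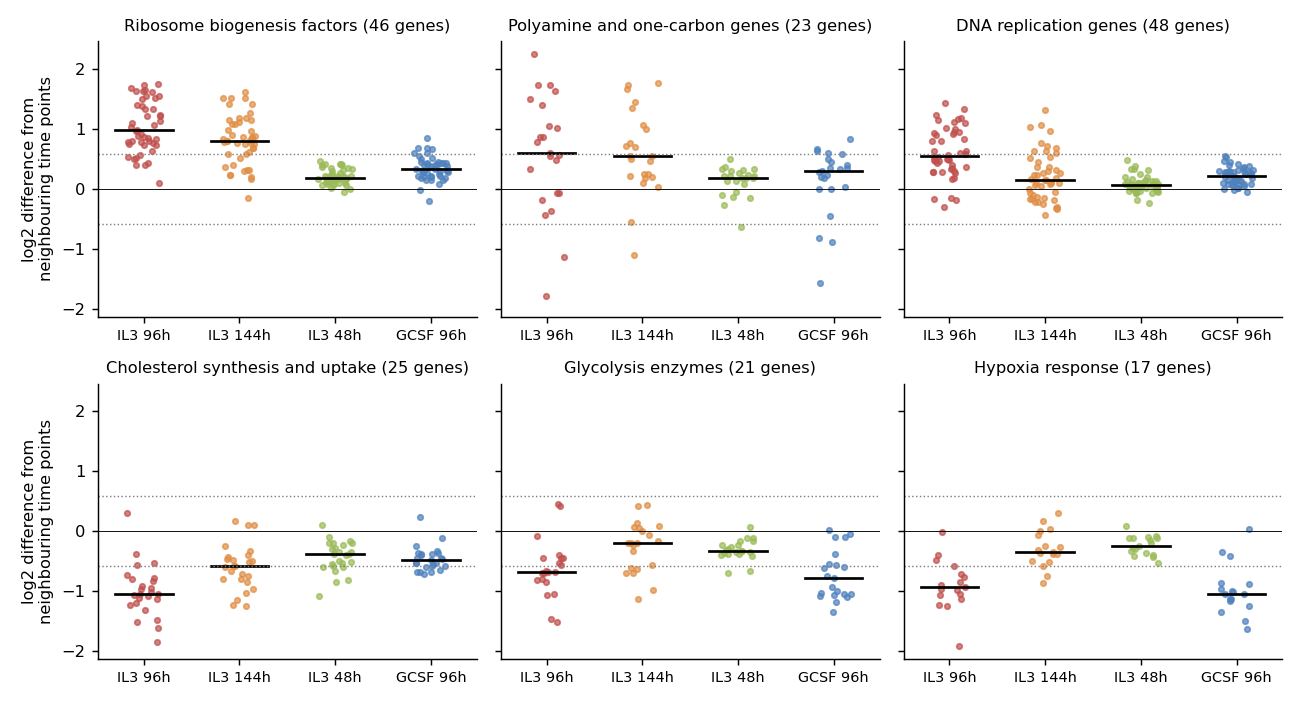
Log2 difference of each gene of 6 lists between a time point and the mean of its neighbouring time points, at IL3-OHT 96h (red), IL3-OHT 144h (orange), IL3-OHT 48h (green) and GCSF-OHT 96h (blue). Points are genes, placed with random sideways spread, black bars are medians, and dotted lines mark 0.58 above and below 0. Ribosome biogenesis has medians of 0.97, 0.81, 0.18 and 0.34 from left to right, and the hypoxia response -0.93, -0.34, -0.24 and -1.05.

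The first addition of OHT gave a further point of reference, IL3-OHT 8h against undifferentiated cells, a comparison added after the values had been seen, in which 29.6% of genes differed. Of the genes higher at 96h, 678 were also higher 8 h after the first OHT (41.5% of the 96h list and 33% of the 8h list, background 11.8%), and 11.1% of the 96h list were lower. Of those lower at 96h, 816 were also lower (57.3% and 26.2%, background 17.9%), and 17 were higher. Mat2a differed by 0.37 and Ddx21 by 0.74 on the log2 scale 8 h after the first OHT, Fdps by -0.23, Ero1l by -2.51, Myh7b by -4.14 and Fosb by -6.38.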

How the data were processed

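PUER RNA-Seq libraries (165, in 56 combinations of cytokine and time) were grouped by their labels. Transcript abundance came from Salmon (GRCm38), and the authors scaled counts with DESeq2 size factors, so that the deposited values are normalized signal, given here as normalized counts of 36255 genes. Each nonzero value (100%) came out as a whole number of reads (tolerance 0.01 reads), except that 7 libraries, with size factors near 1, could not be checked in this way. The step from transcripts to genes and tool versions are not given in the sources used here.

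Tests used limma 3.58.1 in R 4.3.3, with 1 mean per group over all libraries, a mean-variance trend, log2(normalized count + 1) and Benjamini-Hochberg adjustment, on the 17439 genes that reached 5 normalized counts in any library. The code was tested on simulated counts. Calls needed an adjusted p below 0.05 together with a log2 difference beyond 0.58 in size. Named are the 12 genes with the largest rise and the 12 with the largest fall (mean of 50 or more on the higher side, groups apart, no clone or pseudogene names), up to 4 called genes per list (mean of 20 or more) and 18 fixed genes. Genes named beyond these complete small counts or carry a promoter shown and were chosen after their values were seen. The members, lists and tests were chosen with earlier results of these data known, and the comparison of IL3-OHT 8h was added later. Of 1219 entries in 53 lists, 1218 matched a gene. Alternatives covered pseudocounts, filters, scalings, thresholds, left-out replicates, other neighbours, smaller fits, a replicate block, and edgeR 4.0.16 and DESeq2 1.42.0 on recovered reads. Coordinates are from GENCODE M21 and promoters from RefSeq, both on GRCm38. Plots were made with matplotlib 3.10.9 in Python 3.11.15.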

Additional observations from a re-analysis of the deposited data

Results flagged for a closer look

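The change at 96h differed between time points or cytokines by the test of the difference itself (limma, same fit). It differed between IL3-OHT 96h and GCSF-OHT 96h in 1353 genes, between IL3-OHT 96h and 144h in 495 and between IL3-OHT 96h and 48h in 1833. The 19 genes below are those of the 24 with the largest changes at IL3-OHT 96h whose difference from GCSF-OHT was called.

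The excess of the change in IL3 over that in GCSF, on the log2 scale, was positive for Ccdc116 by 2.44, Arhgap4 by 2.02, Dnah10 by 2.30, Mat2a by 1.42, Serpinb9g by 1.90, Trmt61a by 1.46, Atp1b2 by 1.22, Cyb5rl by 1.55, Gpatch4 by 1.40, Rnf225 by 1.79 and Serpinb9f by 1.70. It was negative for Myh7b by -1.46, Nectin2 by -2.12, Fstl3 by -1.40, Fads2 by -1.57, Azin2 by -1.38, Fn3k by -1.77, Pcx by -1.59 and Il4i1 by -2.14. These genes were selected for their change in IL3, which favours a larger change there than in GCSF, and GCSF-OHT 96h has 2 libraries. At GCSF-OHT 96h itself Ccdc116 differed by 0.19, Dnah10 by 0.07 and Il4i1 by 0.11, while Myh7b was lower by 1.75 and Mat2a higher by 0.83. All groups had 3 libraries or fewer, a size at which single values were not tested for lying far from the others.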

How the results depend on the processing

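With the threshold on the log2 difference raised from 0.58 to 1, 730 genes were higher and 583 lower at 96h, 219 differed between 104h and 88h, and the change at IL3-OHT 96h differed from that at GCSF-OHT 96h in 471, from IL3-OHT 144h in 168 and from IL3-OHT 48h in 693 genes. The count between 104h and 88h was 315 in a fit of only those groups and 240 with a replicate block in a fit of the 9 libraries. Under the other alternatives all 6 counts stayed within 1.5 times of the reported ones: 1325 to 1943 higher and 1176 to 1617 lower genes at 96h, with edgeR at 1569 and 1395 and DESeq2 at 1551 and 1386. Leaving out 1 replicate gave 1503 to 1642 higher and 1343 to 1441 lower genes, and 373 to 527 between 104h and 88h, the lowest of these without replicate 1 of 104h. The replicate block in the fit of all libraries gave 1636 and 1427 and changed no call of a named gene, and the numbers do not pair the samples (deviations of same-numbered libraries from their group means correlated at -0.0297 to 0.0274 across genes). Library total scaling moved the median of all genes by 0.049 and the share of higher genes among those called from 53.4% to 62.3%. Under an alternative other than the threshold, at most 29 of the named genes lost their call (against 104h alone). Sign changes were confined to genes that were not called in the main comparison: Cebpa (-0.037 to 0.17 with a replicate left out, -0.051 against the mean of 80h, 88h, 104h and 112h), Irf8 (-0.15 to 0.091 with a replicate left out, 0.055 with library total scaling, 0.40 against 88h alone), Kit (-0.052 against 88h alone), Cish (-0.037 to 0.0082 with a replicate left out, 0.049 with library total scaling, 0.10 against 88h alone), Socs3 (-0.042 against 104h alone) and Dusp6 (-0.035 against 104h alone). For lists, the counts over all alternatives but the threshold were 38 to 41 higher in ribosome biogenesis, 18 to 28 in replication, and 20 to 23 lower in cholesterol genes, 12 to 14 in hypoxia genes and 10 to 13 in glycolysis. They varied more in monocyte and macrophage markers (0 to 8 higher), cytokines (3 to 8 higher), receptors (2 to 6 higher), primary granule proteins (0 to 7 lower) and histones (7 to 16 lower). In fits added after the data had been seen, leaving out 1 library of the other time points gave 7.71 to 8.62% of genes higher and 6.27 to 6.9% lower at IL3-OHT 144h, 0.361 to 1.02% and 0.648 to 0.895% at IL3-OHT 48h and 0.648 to 1.21% and 2.45 to 3.95% at GCSF-OHT 96h, and the change at 96h differed from these in 465 to 518, 1630 to 1889 and 1094 to 1457 genes. Genes with counts near 3 reads, such as Nectin2 at 96h, are limited by depth, and the pseudocount understates their change.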

Other observations

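Some groups described for IL3-OHT 96h differed at 144h without forming part of the comparison above. Of 15 STAT5 targets, 4 were higher at IL3-OHT 144h and 1 lower, against 0 and 1 at 96h, and the difference was called in 5 (3 without replicate 3 of 144h). Of 40 mitosis genes 11 were lower at 144h and 3 at 96h, with 1 called as different (17 and 3 without replicate 3 of 144h). Over all genes 8.59% were higher and 6.76% lower at 144h. The difference between 96h and 144h was called upward in 0.9% and downward in 1.94% of all genes. The remaining lists at 96h stand beside 9.36% of all genes higher and 8.17% lower. They are proteins of the lysosome (2 higher and 1 lower of 39), subunits of the NADPH oxidase (0 and 0 of 7) and of the proteasome (2 and 0 of 31), targets of p53 (2 and 2 of 17), NF-kB factors and inhibitors (1 and 0 of 20) and the BCL2 family (1 and 1 of 13).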
